A study of Mus musculus with 19 samples.

Results

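miR-137 is a microRNA (miRNA) of the brain whose hairpin yields a common arm, named miR-137, and a rare arm, named miR-137*. The 2 members were picked out of a table of 528 mouse miRNAs by their names, with no threshold on their values, and were followed through all 19 libraries and 7 groups of the study. Each library holds miRNAs of 19 to 24 nt that were precipitated with the Argonaute protein Ago2 from brain tissue of mice at postnatal day 56. The method, miRNA tagging, expresses a Myc-tagged Ago2 in a chosen class of cells, so that anti-Myc pulls down the miRNAs of that class out of whole tissue.

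Anti-Myc libraries came from Purkinje cells of the cerebellum (n = 3, strain background C57BL/6 & black swiss, 3 tissues pooled for each library). They also came from PV cells (n = 2), SST cells (n = 2) and Gad2 cells (n = 3) of the neocortex, each on C57BL/6 & 129 with 4 tissues pooled for each library, and from Camk2a cells of the neocortex (n = 3, C57BL/6 & BALB/c, 1 tissue each). Anti-Ago2, which takes Ago2 from every cell type, was used on whole Cerebellum (n = 3, C57BL/6 & black swiss) and whole Neocortex (n = 3, C57BL/6 & BALB/c), with 1 tissue for each library. PV stands for parvalbumin and SST for somatostatin, which mark separate classes of GABA-releasing interneurons. Gad2, whose product makes GABA, covers the PV and SST classes among others, while Camk2a is a gene of excitatory neurons. The driver alleles behind the tag are not given in the sources used here. Cell-class genes such as Pvalb or Sst are mRNAs and are not measured by these libraries, so the class labels could be checked only against miRNAs.

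A miRNA is cut from a hairpin into a short duplex, and 1 strand of that duplex usually stays in Ago2 while the other is degraded. The strand that stays guides Ago2 to mRNAs through its seed, bases 2 to 8, and lowers their translation or stability. miR-137 is best known in the brain for its roles in the differentiation of neural stem cells, in dendrite growth and in synaptic transmission, and in humans the locus of its gene carries common variants associated with schizophrenia.

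The mature sequences from RefSeq (GRCm38.p6) are shown because the seed decides which mRNAs an arm can bind, with the seed in capitals:
miR-137: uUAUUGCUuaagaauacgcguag
miR-137*: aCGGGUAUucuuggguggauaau
Among 1679 mature mouse names in the RefSeq table, 1 carries the seed of miR-137 and 1 the seed of miR-137*, namely the arms themselves. A change in miR-137 is therefore a change of the whole pool of miRNAs with that seed among those names. The hairpin of 73 nt is shown to place the arms, with miR-137* (positions 9 to 31) and then miR-137 (positions 45 to 67) in capitals:
hairpin of miR-137: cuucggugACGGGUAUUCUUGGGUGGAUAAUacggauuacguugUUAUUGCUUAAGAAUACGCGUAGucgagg

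In GRCm38.p6 the hairpin lies on the plus strand of chromosome 3 at chr3:118433857-118433929, with miR-137* at chr3:118433865-118433887 and miR-137 at chr3:118433901-118433923. GENCODE M21 places it inside the noncoding gene Gm26871 (chr3:118430324-118530022, plus strand), within exon 3 of the transcript Gm26871-202 and exon 1 of Gm26871-201. The next protein-coding gene on that strand is Dpyd, an enzyme of pyrimidine breakdown, which starts 128 kb downstream. Only 1 hairpin of the RefSeq table holds the sequence of miR-137, so its reads cannot be shared with a second copy among those hairpins.

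Library depth ran from 1229834 miRNA reads (Cerebellum replicate 1) to 14249087 (Gad2 replicate 1), an 11.6-fold span. All levels below are reads per 1000000 miRNA reads (RPM) of the same library, where a read counts once whatever the length of the miRNA. Summed levels of miRNAs of other cell types differed between the whole-tissue and the tagged libraries. Vascular miRNAs (3 of 6 listed names measured) summed to 323 to 424 RPM in Purkinje, 295 to 330 in PV, 734 to 766 in SST, 295 to 354 in Gad2, 934 to 993 in Camk2a, 5810 to 6312 in Cerebellum and 7841 to 8178 in Neocortex. Oligodendrocyte miRNAs (4 of 5 measured) summed to 2743 to 3249 RPM in Purkinje, 666 to 1219 over the other 4 tagged groups and 2155 to 3564 over both whole tissues. Blood and microglia miRNAs (8 of 9 measured) stood at 1273 to 1585 RPM in Purkinje and 82.6 to 379 over the other 4 tagged groups. Over both whole tissues they stood at 1940 to 4200 RPM. The Purkinje sum was mostly miR-486, at a mean of 1426 RPM against 351 in Cerebellum. miR-451 ran the other way, at 40.2 RPM in Purkinje against 2108 in Cerebellum.

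miR-137 differed by close to 3 orders of magnitude between the groups. Its level was lowest in Purkinje libraries, at 11.1, 8.01 and 11.5 RPM, which rest on 23, 20 and 39 reads. PV libraries held 246 and 212 RPM. Neither PV library came near a Purkinje library, and neither reached any library of the other 3 neocortical classes. SST libraries held 2991 and 2360 RPM, and Gad2 libraries 1958, 1711 and 2993 RPM. These 2 groups overlapped, since Gad2 replicate 3 stood as high as the higher SST library while the other Gad2 libraries lay under both. Camk2a libraries held 4991, 4469 and 5579 RPM, above every interneuron library. In libraries of many cells, fewer cells of a type and less RNA per cell cannot be told apart.

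Of the whole tissues, Cerebellum held 474, 362 and 472 RPM and Neocortex 12291, 6888 and 7204 RPM. Neocortex replicate 1 stood apart at the top of its group, and even the lowest Neocortex library lay above the highest Camk2a library. In order from the lowest mean, the groups ran Purkinje (10.2 ± 1.94), PV (229 ± 23.8), Cerebellum (436 ± 64.3), Gad2 (2221 ± 680), SST (2675 ± 447), Camk2a (5013 ± 556) and Neocortex (8794 ± 3032 RPM, mean ± SD). Among miRNAs of the same library, miR-137 ranked 16 to 23 in Neocortex, 29 to 33 in Camk2a, 45 to 54 in Gad2 and SST, 91 to 101 in Cerebellum, 119 to 127 in PV and 253 to 280 in Purkinje. So it was among the common miRNAs of neocortical tissue and an uncommon miRNA of Purkinje cells. Of the neighbours in that order, Purkinje with PV, SST with Camk2a and Camk2a with Neocortex were called different and Gad2 with SST were not; PV with Cerebellum and Cerebellum with Gad2 were not among the 16 comparisons tested.

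**Figure D1:**
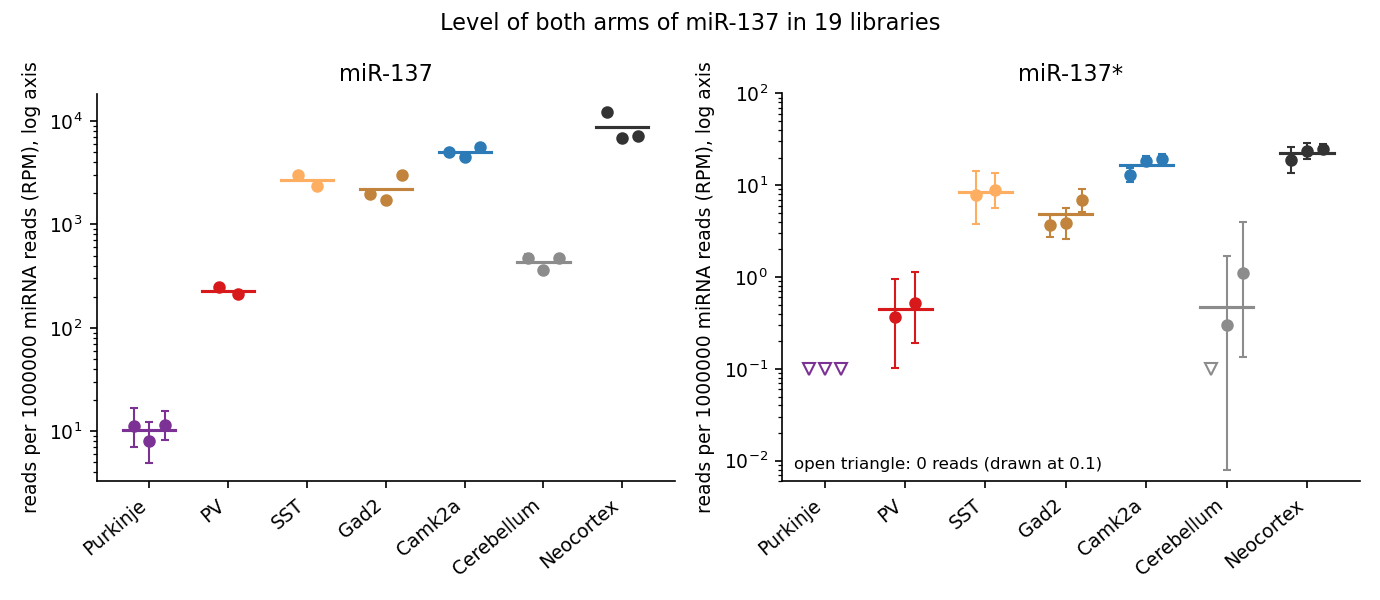
Level of miR-137 (left) and miR-137* (right) in each library, as reads per 1000000 miRNA reads on a log axis. Points are libraries, vertical bars exact 95% binomial intervals that cover counting error only, horizontal lines group means, and open triangles libraries with 0 reads. miR-137 sits near 10 RPM in Purkinje and near 229 RPM in PV. It is at 1711 RPM or more in every SST, Gad2, Camk2a and Neocortex library.

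The plot of levels by library shows how small the spread within most groups was beside the gaps between groups. Replicate libraries still differed by more than read counting in all groups but Purkinje. The chi-square per degree of freedom of the reads of miR-137 was 0.959 in Purkinje, 27.4 in PV, 130 in SST, 1612 in Gad2, 718 in Camk2a, 23.5 in Cerebellum and 3255 in Neocortex. The 3 Purkinje libraries thus agree within sampling noise at 20 to 39 reads. The labels do not say that replicates came from separate animals, so p-values measure the spread between these libraries, which may be technical.

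The group means were compared in 1 limma fit over all 19 libraries on log2(value + 1), where the value is the deposited one, equal to 10 times RPM. The p-values carry a Benjamini-Hochberg adjustment over 522 tested miRNAs, and a change was called at an adjusted p under 0.05. Any difference between the 7 groups was called for miR-137 (limma adjusted p = 1.94e-17) and for miR-137* (limma adjusted p = 5.62e-10). That test called 87.2% of tested miRNAs, so the call by itself does not set miR-137 apart. The span does so more: the highest group mean of miR-137 lay 9.70 log2 units above the lowest, and 3 of the 220 other miRNAs that reached a group mean of 100 RPM had a larger span.

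Within the GABAergic cells of the neocortex, miR-137 separated the PV class from the SST class. PV libraries held 246 and 212 RPM and SST libraries 2991 and 2360 RPM, which put PV 11.7-fold lower. The groups did not overlap, the log2 change was -3.54 ± 0.28 (SE; limma adjusted p = 5.25e-09), and 25.1% of tested miRNAs were called lower in PV. With 2 libraries in each group, 50.2% of tested miRNAs were lower in PV without overlap, so the lack of overlap says little here. Tissue, antibody, strain background and number of pooled tissues are the same for these 2 groups by their labels. Among 176 miRNAs whose PV and SST means averaged at least 100 RPM, the change of miR-137 ranked 6 from the lowest.

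Against Gad2, the wider class, PV stood at 246 and 212 RPM and Gad2 at 1958, 1711 and 2993 RPM. PV was 9.70-fold lower (log2 change -3.24 ± 0.26, limma adjusted p = 9.05e-09), and 14.6% of tested miRNAs were called lower. Of 161 miRNAs whose PV and Gad2 means averaged at least 100 RPM, 1 had a lower change. For SST over Gad2 the log2 change was 0.30 ± 0.26 (95% interval -0.24 to 0.84, limma adjusted p = 0.405), in a comparison where 21.6% of miRNAs were called higher. That change had no stable sign: it was -0.26 when libraries were divided by TMM factors, which align the bulk of miRNAs between libraries, and 1.08 (limma adjusted p = 0.00674) per miR-124 read. The Gad2 level thus lay between those of PV and SST by the means, with no called difference from SST at the deposited scale.

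Excitatory neurons carried more miR-137 than the GABAergic classes. PV libraries, at 246 and 212 RPM, stood 21.9-fold below Camk2a libraries at 4991, 4469 and 5579 RPM (log2 change -4.45 ± 0.26, limma adjusted p = 1.62e-11; 22.4% called lower). Gad2 was 2.26-fold lower than Camk2a (log2 change -1.21 ± 0.23, limma adjusted p = 0.000305; 16.7% called lower) and SST 1.87-fold lower (log2 change -0.91 ± 0.26, limma adjusted p = 0.00688; 14.2% called lower). In each of the 3 comparisons the libraries of the groups did not overlap, as was so, in the lower direction, for 35.2%, 23.0% and 20.5% of tested miRNAs in PV, Gad2 and SST. The SST difference was the least firm of them, since it reached -0.51 (limma adjusted p = 0.185) per miR-124 read and -0.74 (limma adjusted p = 0.0857) without SST replicate 2, against -1.56 with TMM factors. Camk2a cells differ from the interneuron groups in strain background and number of pooled tissues as well, and these cannot be told apart from the cell class.

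Purkinje cells, the GABAergic output neurons of the cerebellar cortex, held the least miR-137 of any group. Against whole Cerebellum, the tissue they come from, Purkinje libraries held 11.1, 8.01 and 11.5 RPM and Cerebellum libraries 474, 362 and 472 RPM. That is 42.6-fold lower (log2 change -5.41 ± 0.23, limma adjusted p = 4.12e-14), where 37.4% of tested miRNAs were called lower in Purkinje and 37.0% were lower without overlap. These groups share strain and tissue but differ in antibody and pooling. The summed vascular and ependymal miRNAs were lower in Purkinje too, at 323 to 424 against 5810 to 6312 RPM and 11.0 to 18.9 against 1457 to 1926 RPM. Smaller gaps held for the oligodendrocyte sum, at 2743 to 3249 against 3364 to 3564 RPM. Blood and microglia miRNAs summed to 1273 to 1585 against 2874 to 3341 RPM, but most of that Purkinje sum was miR-486. Of the 8 members, 7 were called lower in Purkinje and 1 higher, with a median log2 change of -4.69 against -0.19 over all tested miRNAs. The part of these cell types in the difference was not tested.

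Against SST, Gad2 and Camk2a cells the gap was wider than against Cerebellum, and against PV cells it was narrower. Purkinje lay 22.4-fold below PV (log2 change -4.48 ± 0.26, limma adjusted p = 1.86e-11; 27.6% called lower), 261-fold below SST (-8.02 ± 0.26, limma adjusted p = 6.00e-16; 38.7%), 217-fold below Gad2 (-7.72 ± 0.23, limma adjusted p = 3.82e-16; 34.5%) and 490-fold below Camk2a (-8.93 ± 0.23, limma adjusted p = 1.30e-17; 32.6%). In Purkinje over Gad2, miR-137 had the lowest change of the 162 miRNAs whose Purkinje and Gad2 means averaged at least 100 RPM. Purkinje and Gad2 cells both release GABA, but these groups differ in brain region and strain as well as in class, and the sources cannot be told apart. The fold values rest on 82 Purkinje reads in all, and counting error alone spans 4.89 to 12.4 RPM in the Purkinje library with the fewest reads.

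Whole tissues showed the regional side of the same pattern. Cerebellum libraries held 474, 362 and 472 RPM and Neocortex libraries 12291, 6888 and 7204 RPM, a 20.2-fold lower level in Cerebellum (log2 change -4.29 ± 0.23, limma adjusted p = 7.95e-12; 36.0% called lower). Of 160 miRNAs whose Cerebellum and Neocortex means averaged at least 100 RPM, 2 had a lower change. Strain background differs between these tissues, and it cannot be told apart from the region.

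Each tagged class of the neocortex held less miR-137 than whole Neocortex did. PV was 38.4-fold lower (log2 change -5.22 ± 0.26, limma adjusted p = 9.59e-13; 29.3% called lower), Gad2 3.96-fold lower (-1.98 ± 0.23, limma adjusted p = 7.38e-07; 24.3% called lower and 29.7% lower without overlap) and SST 3.29-fold lower (-1.67 ± 0.26, limma adjusted p = 1.68e-05; 21.5%). Camk2a, the class with the highest tagged level, was 1.75-fold lower (log2 change -0.76 ± 0.23, limma adjusted p = 0.0112; 28.0%). PV, SST and Gad2 differ from Neocortex in strain background, number of pooled tissues and antibody, which cannot be told apart from the cell class. Camk2a and Neocortex share strain, tissue and pooling and differ in antibody. Their call was lost with TMM factors (log2 change -0.54, limma adjusted p = 0.0941), without Neocortex replicate 1 (-0.50, limma adjusted p = 0.0851) and without Camk2a replicate 2 (-0.68, limma adjusted p = 0.0561). The fall from whole tissue to tagged cells was steeper in Purkinje over Cerebellum than in Gad2 over Neocortex, by -3.43 ± 0.33 on the log2 scale (limma adjusted p = 3.18e-08; 45.8% of tested miRNAs called in either direction and 22.2% lower).

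**Figure D2:**
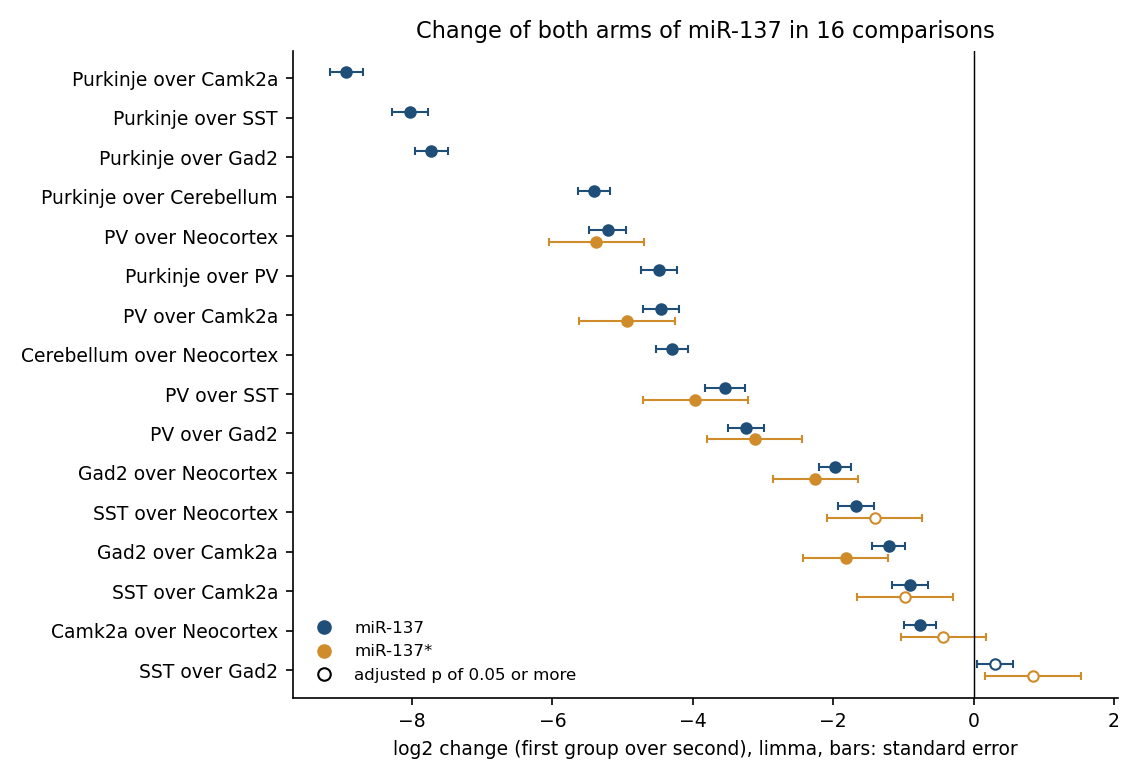
Log2 change of miR-137 (dark) and miR-137* (orange) in 16 comparisons, as the first group over the second, from 1 limma fit. Bars are standard errors, open points have an adjusted p of 0.05 or more, and changes of miR-137* in comparisons where a group has 3 reads or fewer are left out; miR-137 runs from -8.93 in Purkinje over Camk2a to 0.30 in SST over Gad2, the only open point of miR-137.

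The plot of changes orders the comparisons by miR-137. miR-137 was called lower in the first-named group in 15 of the 16 comparisons, a count that follows from its order of levels and from how the pairs were laid out. The 4 comparisons with the largest fall all had Purkinje as the first group. The comparisons share groups, and so are not independent of each other.

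Because the libraries differ in how much of their reads a few miRNAs take, miR-137 was also set against miR-124, an abundant neuronal miRNA. miR-124 averaged 342179 RPM in PV and 154026 RPM in SST, so the common total of a PV library leaves less room for other miRNAs. Per 1000 miR-124 reads, there were 0.0390, 0.0265 and 0.0398 miR-137 reads in Purkinje libraries, 0.677 and 0.659 in PV, 19.6 and 15.2 in SST, and 7.33, 6.02 and 12.3 in Gad2. Camk2a libraries had 27.1, 19.9 and 27.2, Cerebellum libraries 1.69, 1.35 and 1.96, and Neocortex libraries 73.5, 31.5 and 49.5. The order of the 7 groups was the same as by RPM. PV over SST widened to a log2 change of -4.69 on this scale and narrowed to -2.90 with TMM factors, and it was called on both.

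**Figure D3:**
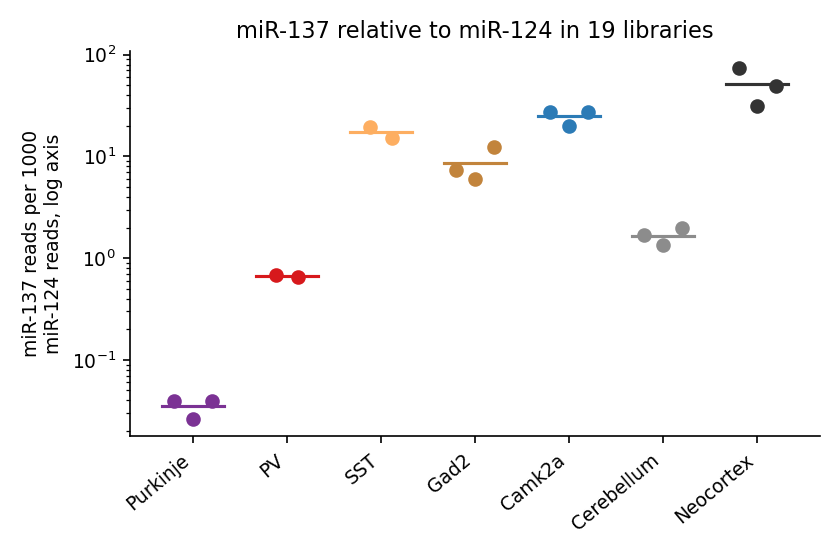
miR-137 reads per 1000 miR-124 reads in each library, on a log axis. Points are libraries and lines are group means; PV sits at 0.668 ± 0.013 (n = 2), SST at 17.4 ± 3.12 (n = 2) and Camk2a at 24.7 ± 4.15 (n = 3) (mean ± SD), and SST now lies above every Gad2 library.

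The plot against miR-124 shows SST and Gad2 apart where RPM showed them overlapping. miR-124 itself was called lower in SST, at 154000 ± 1930 against 265000 ± 20100 RPM in Gad2 (log2 change -0.78 ± 0.18, limma adjusted p = 0.00254). That comparison called 31 of 522 tested miRNAs lower. SST had 17.4 ± 3.12 and Gad2 8.54 ± 3.29 miR-137 reads per 1000 miR-124 reads (SD, n = 2 and 3). The difference between SST and Gad2 thus depended on the denominator, and the low values of PV and Purkinje did not.

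The rare arm, miR-137*, followed the common arm at a small fraction of its level. It had 0 reads in the 3 Purkinje libraries, which allows up to 0.378 RPM over the group. PV libraries held 0.372 and 0.525 RPM (4 and 6 reads), SST libraries 7.82 and 8.95 RPM (10 and 22 reads), and Gad2 libraries 3.65, 3.91 and 6.87 RPM (52, 29 and 48 reads). Camk2a libraries held 13.0, 18.3 and 19.1 RPM (134, 235 and 202 reads), Cerebellum libraries 0, 0.304 and 1.11 RPM (0, 1 and 2 reads), and Neocortex libraries 19.1, 23.9 and 24.7 RPM (41, 98 and 267 reads). So the star arm could be counted well in the neocortical groups other than PV, and barely or not at all in PV and the cerebellar groups. Across the 7 group means the log2 levels of both arms had a Pearson r of 0.951, and 0.926 across the 19 libraries; the points share libraries, depth and a precursor.

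Differences of miR-137* had the same direction as those of miR-137 in the comparisons with enough reads. PV was 18.7-fold lower than SST (log2 change -3.96 ± 0.74, limma adjusted p = 0.000309) and 10.7-fold lower than Gad2 (-3.12 ± 0.68, limma adjusted p = 0.00160). It was 37.5-fold lower than Camk2a (-4.94 ± 0.68, limma adjusted p = 4.87e-06) and 50.3-fold lower than Neocortex (-5.37 ± 0.68, limma adjusted p = 1.30e-06). These PV values rest on 10 reads. Gad2 was 3.49-fold lower than Camk2a (-1.82 ± 0.61, limma adjusted p = 0.0228), a call that was lost without Gad2 replicate 1, Gad2 replicate 2, Camk2a replicate 2 or Camk2a replicate 3 in turn (limma adjusted p = 0.0716 to 0.0774), and 4.69-fold lower than Neocortex (-2.26 ± 0.61, limma adjusted p = 0.00460).

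The other comparisons of miR-137* were not called or rest on few reads. Camk2a over Neocortex gave a log2 change of -0.43 (95% interval -1.70 to 0.83), SST over Neocortex -1.41 (-2.83 to 0.01), SST over Camk2a -0.98 (-2.40 to 0.44) and SST over Gad2 0.84 (-0.57 to 2.26). None passed in limma (adjusted p = 0.586, 0.0889, 0.254 and 0.378), although edgeR and DESeq2 on the recovered reads called SST lower than Neocortex and than Camk2a. Purkinje, with 0 reads, was at least 22.2-fold lower than SST, at least 12.7-fold lower than Gad2, at least 44.5-fold lower than Camk2a and at least 1.19-fold lower than PV, taking 3 reads over the group as its floor. Cerebellum had 3 reads and Neocortex 406, and the ratio of Neocortex to Cerebellum per read sequenced was 50.2 (95% counting interval 17.1 to 244). Purkinje with 0 reads and Cerebellum with 3 are both at or under the floor, so no fold or direction is read from them, whatever a fit returns.

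The share of the star arm among reads of the hairpin tells whether both arms moved in step. It was 0 of 82 reads in Purkinje, which allows up to 3.66%, and 0.197% in PV, 0.331% in SST, 0.209% in Gad2 and 0.339% in Camk2a. In whole tissue it was 0.114% in Cerebellum (3 of 2626 reads) and 0.306% in Neocortex. By library it ran from 0.151% to 0.247% in PV, 0.261% to 0.378% in SST, 0.186% to 0.229% in Gad2, 0.260% to 0.408% in Camk2a and 0.155% to 0.346% in Neocortex. Neocortex replicate 1, the library with the most miR-137, had the lowest of the Neocortex shares.

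**Figure D4:**
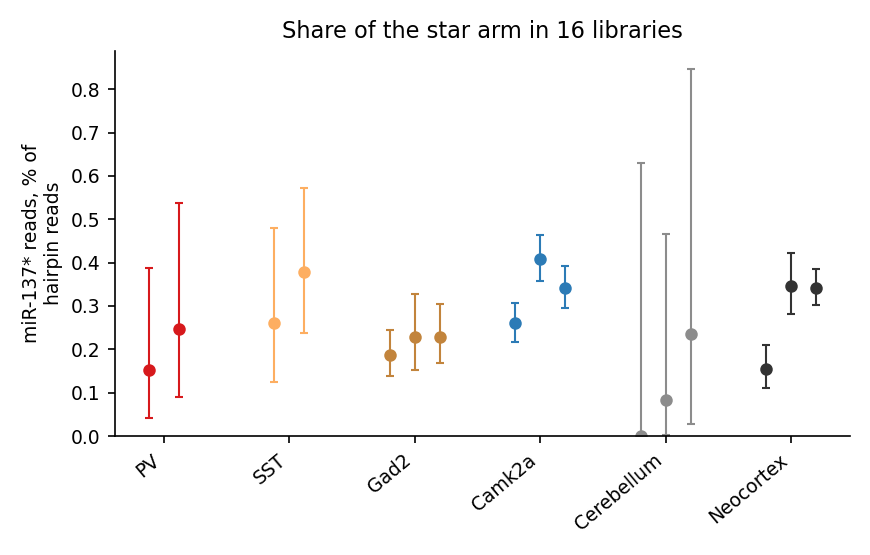
Share of miR-137* among all reads of the hairpin in 16 libraries, in percent, with exact 95% binomial intervals that cover counting error only. Purkinje libraries, with 0 of 20 to 39 reads, are left out because their intervals reach 9.03% or more; shares run from 0.151% to 0.408% in the neocortical libraries.

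The plot of the star share shows intervals that overlap between most groups. In a limma test of the log2 ratio of the arms, with 0.5 reads added to each, a difference between the 7 groups was called (limma adjusted p = 8.51e-05; 71.2% of 156 hairpins called). That call rests on Purkinje, where 0.5 reads were set against 20 to 39. With the neocortical groups alone, an analysis added after seeing the data, it was not called (limma adjusted p = 0.390; 51.9% of hairpins called). The pooled shares of Gad2 (95% interval 0.175% to 0.249%) and Camk2a (0.312% to 0.368%) lay apart by counting error alone, but their arm ratio was not called over libraries (limma adjusted p = 0.472). Libraries of 1 group also differed beyond counting error, as in Neocortex, with 0.111% to 0.210% in replicate 1 and 0.281% to 0.422% in replicate 2.

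By a fixed rule, the miRNAs most and least like miR-137 were those with the highest and lowest Pearson r of log2 levels over the 7 group means, among 220 miRNAs that reached 100 RPM in a group. The median r of the 220 was 0.173 and 5 stood above 0.9. These were miR-674 (r = 0.980), miR-335-5p (0.966), miR-132* (0.923), miR-23a (0.909) and miR-672 (0.902). The correlations are descriptions over 7 means that share depth and scaling, and no test was made of them. Changes and p-values given below for miRNAs picked this way come from the same values, so they are no separate evidence of likeness. The RefSeq sequences of the 5 are shown to compare their seeds, in capitals, with that of miR-137:
miR-674: gCACUGAGaugggaguggugua
miR-335-5p: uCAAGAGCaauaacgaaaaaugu
miR-132*: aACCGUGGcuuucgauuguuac
miR-23a: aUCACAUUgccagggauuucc
miR-672: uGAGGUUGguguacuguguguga
None of the 5 carries the seed of miR-137, and in RefSeq they lie on chromosomes 2, 6, 11, 8 and X, none on chromosome 3.

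Likeness in shape did not mean an equal span. miR-674 averaged 76.2 ± 17.6 RPM in Purkinje, 519 ± 34.0 in PV, 972 ± 166 in SST, 778 ± 138 in Gad2, 1622 ± 185 in Camk2a, 454 ± 45.7 in Cerebellum and 1654 ± 348 in Neocortex (SD). Its range over the groups was 4.44 log2 units, against 9.70 for miR-137. miR-335-5p, which is encoded in an intron of the imprinted gene Mest, was also lowest in Purkinje, at 30.8 ± 0.66 RPM, but stood at 754 ± 33.6 RPM in PV and 452 ± 58.3 in Cerebellum, the reverse of their order for miR-137, and was highest in SST at 3276 ± 237 RPM. In PV over SST, the log2 change was -2.12 for miR-335-5p (limma adjusted p = 9.36e-07), -1.85 for miR-672 (0.00106), -1.73 for miR-132* (0.000146) and -0.90 for miR-674 (0.00642), all smaller falls than the -3.54 of miR-137. miR-23a had -0.60 and did not pass (limma adjusted p = 0.164).

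The miRNAs that ran most opposite to miR-137 were miR-345-5p (r = -0.986), miR-133a (-0.938) and miR-133b (-0.938). miR-133a and miR-133b are best known from skeletal and heart muscle. miR-133b averaged 9140 ± 1366 RPM in Purkinje, 246 ± 17.2 in PV and 3.80 ± 0.95 in SST, where miR-137 averaged 10.2, 229 and 2675 RPM. In PV over SST, miR-133b rose by 6.00 (limma adjusted p = 8.50e-13) and miR-133a by 5.05 (limma adjusted p = 1.35e-13) on the log2 scale. Both were picked by correlation over means that include PV and SST, which favours this direction. miR-345-5p mirrored the order of miR-137 over a small range of 2.50 log2 units, with 259 ± 49.9 RPM in Purkinje and 45.1 ± 3.97 RPM in Neocortex.

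**Figure D5:**
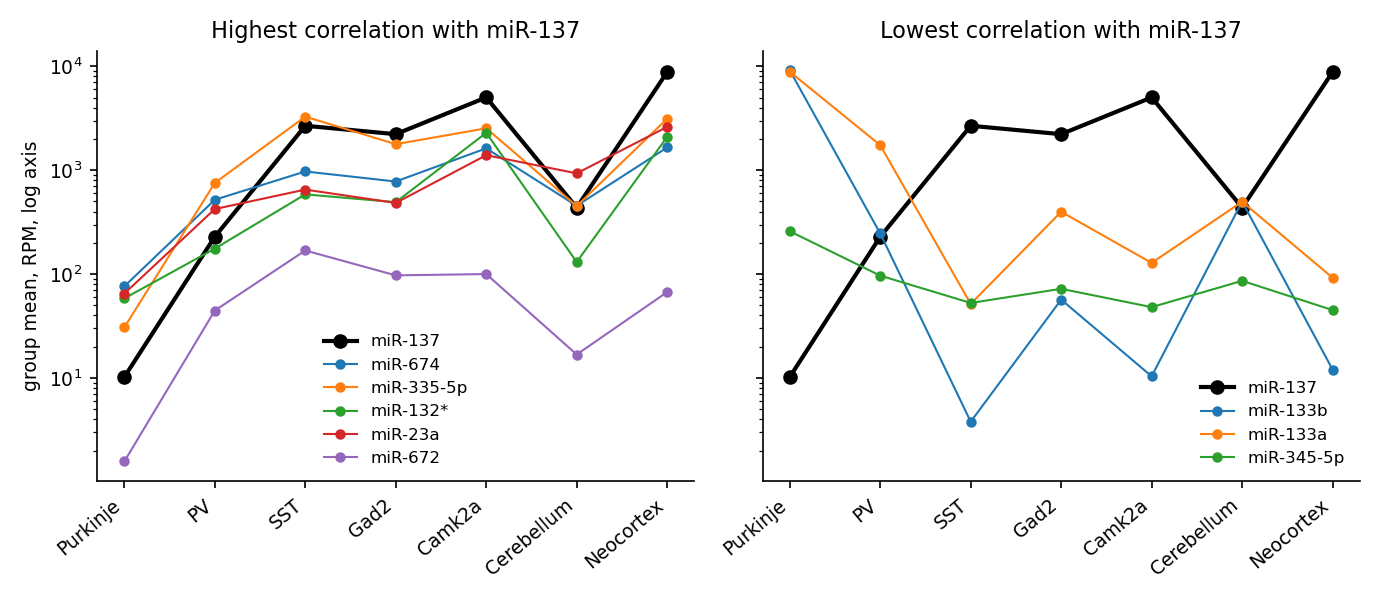
Group means, in RPM on a log axis, of miR-137 (black) with the 5 miRNAs of highest correlation (left) and the 3 of lowest correlation (right) over 7 group means. Points are group means over 2 or 3 libraries. miR-137 and its 5 most alike miRNAs are lowest in Purkinje, while miR-133a, miR-133b and miR-345-5p are highest there. The choice by correlation over these means favours both patterns.

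The plot of likeness shows that all 5 most alike miRNAs had their lowest mean in Purkinje. They were picked by correlation over these same means, so that shared low follows largely from the choice. Their highest mean was in Neocortex (miR-674, miR-23a), Camk2a (miR-132*) or SST (miR-335-5p, miR-672).

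For the setting, 2 lists of other miRNAs were counted in the same fits: 20 measured of 21 neuron-enriched names and 22 of 22 names known for roles at synapses; neither holds miR-137. In PV over SST, 3 neuron-enriched miRNAs were called higher and 6 lower (median log2 change -0.45, against -0.42 over all tested miRNAs, of which 4.02% were called higher and 25.1% lower). miR-124 averaged 342000 ± 29100 RPM in PV and 154000 ± 1930 in SST, and miR-218, which lies in introns of Slit genes, averaged 6500 ± 81.1 and 1250 ± 270 RPM; both rose. miR-7a fell like miR-137, at 69.3 ± 13.0 RPM in PV and 1060 ± 265 in SST (log2 change -3.93 ± 0.36, limma adjusted p = 2.56e-08). The synapse list had 3 higher and 8 lower (median -0.57).

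In Purkinje over Gad2, 2 neuron-enriched miRNAs were called higher and 13 lower (median -1.74, against -0.31 over all tested, of which 20.5% were called higher and 34.5% lower). miR-138, known from rat neurons to restrain the growth of dendritic spines, rose, at 44500 ± 8470 RPM in Purkinje and 6910 ± 1960 in Gad2. miR-128 fell, at 2210 ± 216 RPM in Purkinje and 9120 ± 3500 in Gad2 (log2 change -1.99 ± 0.19, limma adjusted p = 2.53e-08), a smaller fall than the -7.72 of miR-137. The synapse list had 3 higher and 9 lower (median -0.46). In Gad2 over Camk2a the neuron-enriched list had 3 higher and 11 lower (median -0.57, against 0.09 over all tested, of which 21.5% were called higher and 16.7% lower), led by miR-128 with 9120 ± 3500 RPM in Gad2 and 153000 ± 14800 in Camk2a. The synapse list had 5 higher and 5 lower there (median 0.25).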

How the data were processed

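Small RNA libraries of 19 to 24 nt were made from Ago2 or Myc precipitates, and the submitters' processing notes name Bowtie and mm9; no position was taken from the files. The deposited signal is each library's miRNA read count scaled by the authors to a common total: per the file headers it is per 1000000 reads, but each column summed to 10000000, so it was divided by 10 to give RPM. All nonzero values (100.0%) were whole multiples of 1 read within 0.1, so reads and depths were recovered. This also holds for Neocortex replicate 3 but rests on fewer low values there.

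Samples were grouped by title. limma 3.58.1 (R 4.3.3, trend, two-sided) was fitted on log2(deposited value + 1) for 7 group means, on the 522 of 528 miRNAs whose value reached 1 in 2 or more libraries. The design asked for this test for normalized values. The arm test used 156 hairpins with at least 20 reads in 2 libraries and a mean of 5 per arm. Alternatives were other pseudocounts and filters, TMM factors, scaling to miR-124, edgeR 4.0.16 and DESeq2 1.42.0 on recovered reads, a replicate block and leaving out each library. The tests were tried on simulated data. Folds are ratios of group mean RPM, and a floor is 3 reads. Reads were amplified by PCR and carry no molecular identifiers, so intervals and floors describe counting error alone.

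Named miRNAs are both arms, miR-124 as denominator, the 5 most and 3 least correlated miRNAs with a group mean of at least 100 RPM, and up to 4 called list members of highest mean for each comparison described; fewer were printed. The members and lists were chosen with earlier results of these data known. Names were matched to RefSeq through arm names. Vascular, oligodendrocyte, blood and microglia, and ependymal and choroid lists served as marker sums, for which miR-486 and miR-451 were also named. Calls are given only for the blood and microglia list in Purkinje over Cerebellum.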

Additional observations from a re-analysis of the deposited data

Results flagged for a closer look

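The change of miR-137 from whole tissue to tagged cells differed between Purkinje over Cerebellum and Gad2 over Neocortex. Purkinje over Cerebellum had a log2 change of -5.41 ± 0.23 and Gad2 over Neocortex -1.98 ± 0.23 (SE, n = 3 libraries in each group). The test of the difference itself, an interaction term in the same limma fit, gave -3.43 ± 0.33 (limma adjusted p = 3.18e-08). All 3 Purkinje libraries lay below all 3 Cerebellum libraries, and all 3 Gad2 libraries below all 3 Neocortex libraries, as was so for 37.0% and 29.7% of tested miRNAs. The same test called 45.8% of tested miRNAs, with 22.2% more negative in the cerebellum, so such a difference was common. PV over Neocortex, at -5.22 ± 0.26, lay near Purkinje over Cerebellum, while SST over Neocortex had -1.67 ± 0.26 (SE, n = 2 libraries in PV and in SST). The difference thus depends on the neocortical class chosen, and it was not tested with PV or SST in place of Gad2. The groups differ in antibody and pooling in both regions, with 3 pooled tissues in Purkinje and 4 in Gad2, and strain differs between Gad2 and Neocortex; their part in the difference was not tested.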

How the results depend on the processing

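miR-137 kept its direction and its side of the threshold in 13 of 16 comparisons over 27 alternatives each, and miR-137* in 11 of 16. For miR-137, Camk2a over Neocortex lost its call with TMM factors (-0.54) and in edgeR (-0.52), and leaving out 1 library gave -0.91 to -0.50. SST over Camk2a lost it per miR-124 read (-0.51), with -1.08 to -0.74 when a library was left out. SST over Gad2 turned to -0.26 with TMM factors, -0.18 in edgeR and -0.15 in DESeq2, and was called per miR-124 read (1.08). For miR-137*, Purkinje over Cerebellum was not called with a pseudocount of 10 (-0.49), in edgeR (-4.51), in DESeq2 (-2.69) or without Cerebellum replicate 3 (range -2.81 to -1.01). Purkinje over PV was not called with that pseudocount (-0.53), in DESeq2 (-2.50) or without PV replicate 2 (range -2.64 to -2.24). Purkinje has 0 reads, against 3 in Cerebellum and 10 in PV, so the fitted values of both pairs are set by the constant or prior each fit adds, and neither a size nor, for Cerebellum, a direction is read from them. SST over Neocortex was called with that pseudocount (-1.32), with TMM factors (-1.83), in edgeR (-1.71), in DESeq2 (-1.77) and without Cerebellum replicate 1 or 3 (range -1.53 to -1.32). SST over Camk2a was called with that pseudocount (-0.91), in edgeR (-1.58) and in DESeq2 (-1.59). Gad2 over Camk2a ranged from -2.10 to -1.66 with a library left out. The arm ratio of the neocortical groups alone had an adjusted p of 0.390 in limma. The cause of these changes was not tested.

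The number of miRNAs called in PV over SST was 152, but 338 per miR-124 read and 94 to 159 with a library left out (94 without PV replicate 1). In PV over Gad2 it was 111, and 73 to 126 with a library left out (73 without PV replicate 1). In SST over Gad2 it was 144, but 87 with TMM factors, 305 per miR-124 read and 83 to 154 with a library left out (83 without SST replicate 1). TMM factors shifted the median change of all miRNAs by -0.59 to 0.53 and miR-124 scaling by -1.08 to 0.76 on the log2 scale. The share of calls that were higher moved by over 10 percentage points in 7 of 16 comparisons with TMM factors and in 12 with miR-124 scaling. In PV over SST 21 were higher and 131 lower, against 61 and 57 with TMM factors and 9 and 329 per miR-124 read.

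The replicate numbers were not treated as pairs of libraries. Same-numbered deviations were correlated above 0.1 in every pair in 1 of 16 comparisons only, Purkinje over SST with 2 pairs. With 2 or 3 libraries in a group, that check cannot exclude pairing. With the replicate number as a block, miR-137 in Camk2a over Neocortex stayed at -0.76 (limma adjusted p = 0.00268), and no call of either arm changed. Depth limits miR-137* most, with 0 reads in Purkinje, 3 in Cerebellum and 10 in PV.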
